A study of Citrus unshiu with 2 samples.

Results

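A set of 1230 genes of Citrus unshiu, the satsuma mandarin, had bodies with very little DNA methylation and promoters in which CHH methylation equalled or exceeded CHG methylation. They were taken from the 29073 genes with levels in both libraries of the series and make up 4.23% of them. Levels were averaged over both libraries, and a gene entered the set when CG and CHG in exons were each under 5%, CHG in introns was under 20%, CG in the 3' UTR was under 20%, promoter CHH was at least 5% and promoter CHH was at least as high as promoter CHG. Promoter, exon, intron and 3' UTR levels therefore chose the genes, and they are given below as a description. The difference between the libraries, the downstream flanks and the 5' UTRs were not used in the choice.

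The series holds 1 bisulfite library of shoots, labelled as mature stems, from trees under normal water and 1 from trees after 75 days of light drought. In each condition 20 trees were assigned, grown with restricted roots in a rain-proof tunnel, and the drying soil of the drought group was held near 15% moisture. By its title, the study asks how the methylome changes as light drought makes branches flower. With 1 library per condition and the number of trees in a library not stated, no test between the conditions or between gene classes was possible. Every difference below is the light drought level minus the normal water level, in percentage points, and each SD is over genes, which are not replicates.

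Bisulfite sequencing reads a cytosine as methylated when it resists conversion, and the level of a region is the methylated share of its cytosines. Plants methylate cytosines in the CG, CHG and CHH contexts, where H is A, C or T. CG methylation is copied at replication by MET1, and CHG methylation is kept by the chromomethylase CMT3 through a loop with histone H3 methylation. CHH methylation cannot be copied from a symmetric partner site and has to be set anew, by RNA-directed DNA methylation with DRM enzymes guided by small RNAs, or by CMT2 in deep heterochromatin. In maize, short stretches rich in CHH close to genes are known as CHH islands and are targets of the RNA-directed pathway. A promoter whose CHH level reaches its CHG level departs from the usual order of the contexts, in which CG is highest and CHH lowest.

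CHH-led promoters were the smaller group. Here CHH-led means only that promoter CHH was at least as high as promoter CHG, and CG could be above both. Among the 16433 genes with a promoter CHH average of at least 5%, 25.1% had CHH at least as high as CHG. Of the 8988 genes whose exons, introns and 3' UTRs met the limits on methylation, 1230 had CHH-led promoters, 4127 had CHG-led promoters (CHG above CHH and at least 5%), and 3631 had both contexts under 5%. These last 2 classes serve as the comparison below.

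The promoters of the CHH-led genes carried CHH levels from 0 to 90.0% under normal water, with a median of 12.2%, and from 0 to 91.7% under light drought, with a median of 16.3%. Their average over both libraries lay from 5 to under 10% in 356 genes, from 10 to under 20% in 455, from 20 to under 30% in 223, from 30 to under 40% in 100 and at 40% or more in 96. Low and moderate levels thus made up most of the set. CG and CHG were also present in most of these promoters, with medians of 13.8% and 6.90% under normal water and of 16.8% and 8.76% under light drought. The order of contexts varied within the set. CG was the highest context in 692 genes (56.3%), so CHH was not the top context in most of the set. CHH was highest with CG second in 294 genes, and highest with CG below CHG in 244. Promoter CG was at 0 in both libraries in 52 genes and promoter CHG in 77, where a 0 may also stand for a context without covered cytosines.

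The lead of CHH over CHG was often small. Among the 1153 genes with promoter CHG above 0, the median ratio of CHH to CHG was 1.49. Of all 1230 genes, 450 (36.6%) had CHH at least 2 times CHG, and this count takes in the 77 with promoter CHG at 0 in both libraries. In 125 genes CHH was less than 1 point above CHG, while 118 genes just across that limit had CHG less than 1 point above CHH. At the limit on the CHH level, the last genes inside were Cs1g10920 with an average of 5%, from 0% under normal water and 10% under light drought, Cs6g05130 with 2.47% and 7.54%, and orange1.1t02043 with 1.72% and 8.29%. The first genes outside were Cs5g22620 with 2.09% and 7.90%, Cs3g17870 with 3.82% and 6.15%, and orange1.1t03157 with 2.92% and 7.03%. Genes at the edge of the set are thus alike on both sides of it. The rule held in each library on its own for 763 of the 1230 genes. A further 159 met it under normal water only, 284 under light drought only and 24 in neither library, only in the average.

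Past the promoter, methylation dropped in all contexts. Gene-body CHH averaged 0.556% under normal water and 0.779% under light drought, and it was under 1% in 1111 genes (90.3%) when averaged over both libraries. Gene-body CG stood at 1.21% and 1.55%, and gene-body CHG at 0.494% and 0.722%. The limits on exons, introns and 3' UTRs set most of this. The 5' UTR, which the choice did not use and which borders the promoter, was also low. In the 461 genes with any 5' UTR methylation listed, its CHH level averaged 1.59% under normal water and 1.82% under light drought, beside promoter levels of 15.5% and 19.3% in the same genes. The other 769 genes were listed at 0 there, which includes genes without an annotated 5' UTR. A 5' UTR CHH average of 5% was reached by 22 genes, a count not made over all genes. Over the whole set 5' UTR CHH averaged 0.597% under normal water and 0.681% under light drought, beside 0.501% and 0.575% in all genes. Genes with promoter CHH of at least 5% had 0.663% and 0.749%, and CHG-led genes 0.350% and 0.442%. A low 5' UTR is thus not particular to the set.

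**Figure D1:**
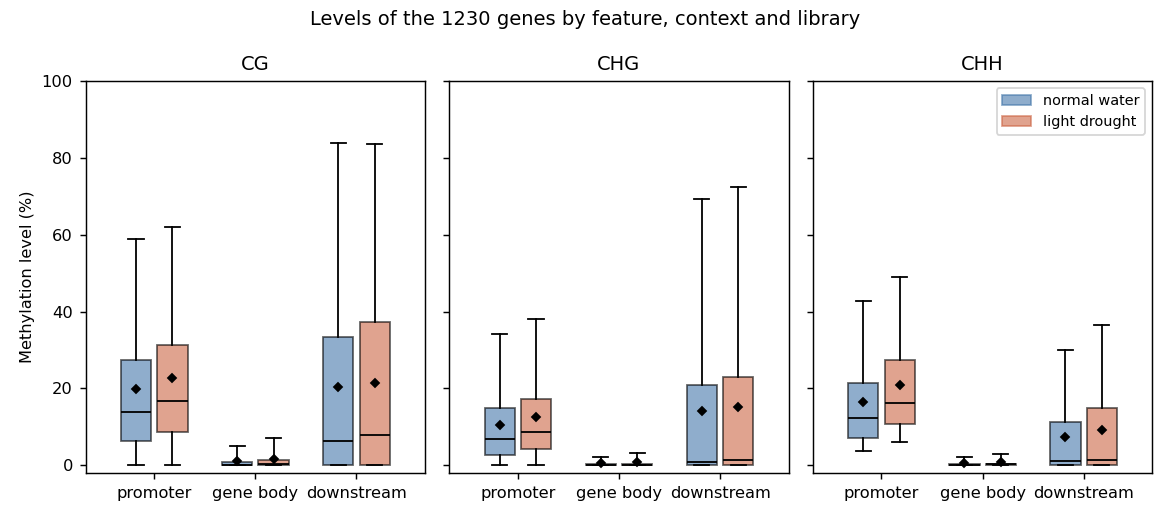
Methylation level in percent (vertical axis) of promoter, gene body and downstream flank in CG, CHG and CHH for the 1230 CHH-led genes, with normal water in blue and light drought in orange. Boxes span the quartiles with the median as a line, whiskers reach the 5th and 95th percentiles over genes, and diamonds are means. Gene bodies sit near 0 in every context, while promoters do not. Downstream means lie well above the downstream medians, which are 0.955% and 1.305% in CHG and 1.22% and 1.455% in CHH.

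A few bodies were not free of CHH, since exon and intron CHH were outside the rule. Gene-body CHH averaged at least 5% in 35 genes, intron CHH in 44 and exon CHH in 4. Intron CG reached 20% in 31 genes. The highest gene-body CHH belonged to Cs3g24070, with 27.5% under normal water and 37.2% under light drought, above its own promoter at 11.5% and 13.8%. This gene was picked out after its values were seen.

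Promoter CHH was higher under light drought in most CHH-led genes. From 16.4% under normal water the mean went to 20.9% under light drought, 4.57 points more (SD 9.16, n = 1230 genes) or 27.9%, and the median difference was 3.60 points. In 1014 genes the level was higher under light drought, in 214 it was lower and in 2 it was equal. The quartiles of the difference were 1.04 and 7.09 points. It depended on how the genes were chosen: with the rule applied to the normal water library alone the mean difference was 2.92 points, and with the light drought library alone it was 5.39 points. Both are positive. Genes listed at 0 in 1 library widened the spread, with 16 at 0 under normal water only and 9 under light drought only. Without them the mean was 4.36 points (SD 6.76, n = 1205).

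CG and CHG in the same promoters were also compared. Promoter CG averaged 19.8% under normal water and 22.7% under light drought, a difference of 2.83 points (SD 12.2) or 14.3% more, with 790 genes higher and 384 lower. These are 64.2% and 31.2% of the set, beside 59.8% and 37.9% of genes with promoter CHH of at least 5%. Over all genes the shares were 52.3% and 34.4%. Promoter CHG averaged 10.6% and 12.7%, a difference of 2.10 points (SD 11.1) or 19.9% more, with 796 genes higher and 355 lower. For CHG these are 64.7% and 28.9%, beside 62.7% and 35.6% of genes with promoter CHH of at least 5%. The rule bounds CHG by CHH, and the CHG value turned with the library used for the choice. It was 4.45 points with the genes chosen under normal water alone and -0.43 points with those chosen under light drought alone. No direction for promoter CHG can therefore be given for these genes. The CG value was 2.53 and 2.57 points under those choices.

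The contexts did not always move together in a promoter. All 3 were higher under light drought in 564 genes and all 3 lower in 79. CHH was higher while CG was lower in 258 genes, and higher while CHG was lower in 241. Such joint counts were not made over all genes, so they describe the set without marking it off from other genes. Over the 1001 genes above 0 in every context and library, the differences in CHH correlated with those in CG at a Pearson's r of 0.494 and with those in CHG at 0.566. These are correlations across genes within 1 pair of libraries, and the contexts of a promoter come from overlapping reads.

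**Figure D2:**
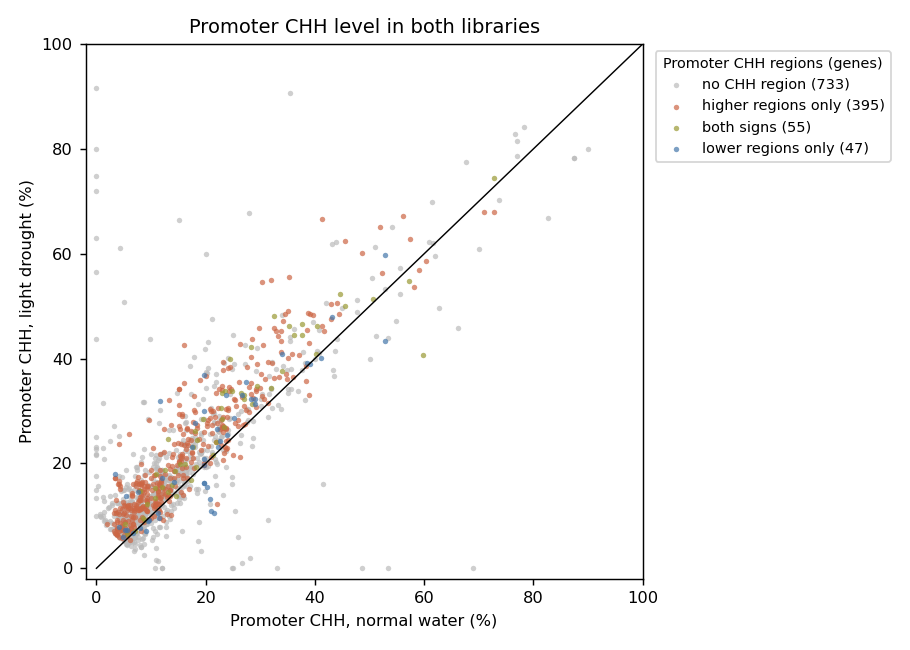
Promoter CHH level in percent under normal water (horizontal) and under light drought (vertical), 1 point per gene for the 1230 CHH-led genes, coloured by the sign of the promoter CHH regions in the authors' deposited table. The line marks equal levels, and 1014 genes lie above it. Points on the axes are the genes listed at 0 in 1 library.

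The CHG-led and low classes put these values in context. In CHG-led promoters CHH averaged 16.8% against 13.7%, a difference of 3.03 points (SD 5.91, n = 4127) or 22.0% more, and 78.0% of genes were higher. The CHG-led class includes genes with promoter CHH under 5%. The 3318 CHG-led genes with at least 5% differed by 3.56 points (SD 6.40) and 80.7% of them were higher, while all 16433 genes with at least 5% differed by 3.97 points (SD 6.64) and 82.4% were higher. The CHH-led set stood at 4.57 points and at the same share of 82.4%. Chosen under normal water alone, CHH-led genes differed by 2.92 points and all genes with at least 5% in that library by 3.52 points, so the order of these means turned with the choice. Over all 29073 genes CHH was 23.2% more. CG and CHG in CHG-led promoters were 3.94% and 5.23% more, from the much higher levels of 43.3% and 37.4% under normal water. In low promoters CHH stood at 0.888% against 0.652%. Since classes differ in level, genes were also compared within ranges of the promoter CHH average. From 5 to under 10% the median difference was 2.68 points in 356 CHH-led genes and 2.03 points in 884 CHG-led genes. From 10 to under 20% it was 3.51 and 3.12 points, and from 20 to under 30% it was 5.86 and 3.98 points (223 and 686 genes). From 30 to under 40% the medians were 5.06 and 5.02 points, and at 40% or more 4.80 and 5.52 points. The CHH-led genes thus had the larger median in the lower ranges and the smaller one in the top range, without a test of either. The means in the top range had the other order. They were 7.02 points (SD 17.0) in CHH-led and 5.96 points (SD 8.85) in CHG-led genes.

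**Figure D3:**
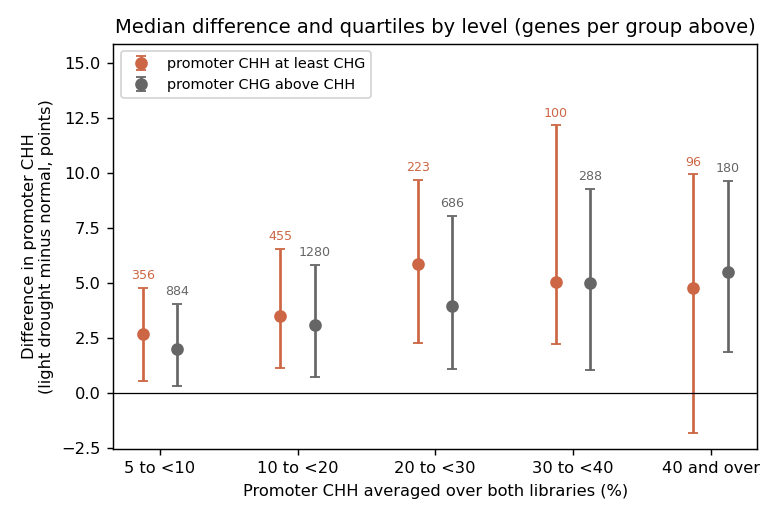
Difference in promoter CHH, light drought less normal water in percentage points (vertical), by range of the promoter CHH average in percent (horizontal), for genes with low-methylation exons whose promoter CHH is at least CHG (orange) or below CHG (grey). Points are medians, bars span the quartiles over genes, and the numbers are genes per range. The medians lie between 2.03 and 5.86 points.

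Large differences were counted by a fixed size of 10 points. Promoter CHH was higher by at least 10 points in 166 of the 1230 genes (13.5%), where 6.36% of all genes and 11.3% of all genes with a promoter CHH average of at least 5% were. It was lower by at least 10 points in 26 genes (2.11%), where 0.729% of all genes and 1.29% of those with at least 5% were. At a size of 5 points, 470 genes (38.2%) were higher, beside 20.3% of all genes and 34.9% of those with at least 5%, and 53 (4.31%) were lower, beside 2.13% and 3.37%. At 15 points, 76 genes (6.18%) were higher, beside 2.15% and 3.8%, and 15 (1.22%) lower, beside 0.365% and 0.645%. With genes chosen on the average, both directions were thus more frequent than in either background at all 3 sizes. The excess at 10 points did not hold under every choice. With genes chosen under normal water alone, 113 of 1118 (10.1%) were higher, beside 10.3% of all genes with at least 5% in that library, and 28 (2.50%) were lower, beside 1.38%. Among the 763 genes that met the rule in each library, 81 (10.6%) were higher, beside 10.6% of all genes with at least 5% in each, and 9 (1.18%) were lower, beside 0.823%. With genes chosen under light drought alone, 194 of 1326 (14.6%) were higher, beside 10.9%, and 14 (1.06%) lower, beside 0.727%. A promoter with an average under 5% cannot differ by more than 10 points, so the second background is the closer one. Leaving out genes listed at 0 in either library gave 150 higher and 17 lower. In CG, 43 promoters (3.50%) were higher by at least 20 points, beside a background of 2.63%, and 21 (1.71%) were lower, beside 1.65%. In CHG, 29 promoters (2.36%) were higher and 20 (1.63%) lower by at least 20 points, beside 2.08% and 1.2% of all genes. The CHG shares and the share of lower CG promoters are near those of all genes. Of genes with promoter CHH of at least 5%, 3.12% were higher and 2.01% lower in CG. In CHG these shares were 3.11% and 1.69%. Of CHG-led genes 4.12% were higher in CG, so the share of higher CG promoters is not particular to the set. Gene bodies seldom differed this much. Body CHH was higher by at least 10 points in 3 genes and lower in 0, beside 0.757% and 0.368% of all genes. For 20 points, body CG was higher in 0 and lower in 2 genes, beside 1.19% and 0.774%, and body CHG was higher in 1 and lower in 0, beside 0.619% and 0.557%. These body counts follow from the low levels that the rule asks for.

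The authors' deposited tables list regions that differ between the libraries, each with a difference in level, an uncorrected and a corrected p-value and a position on a genome build that is not named. With 1 library per condition these p-values do not measure the spread between trees. By the authors' deposited table for CHH, 497 of the 1230 genes (40.4%) have at least 1 region in the promoter, beside 29.1% of all genes. Of these, 296 have 1, 133 have 2 and 68 have 3 or more, up to 6. Regions with the higher level under light drought lie in the promoters of 450 genes (36.6%), where 25.6% of all genes and 42.2% of genes with promoter CHH of at least 5% have one. Lower regions lie in 102 genes (8.29%), beside 8.07% and 13.1%. Both shares are below those of all genes with promoter CHH of at least 5%. These promoters hold 789 different regions in the authors' deposited table, of which 675 (85.6%) are higher under light drought and 114 lower, while 82.4% of the 14278 promoter regions of all genes are higher. The median difference in the authors' deposited table was 22.3 points for the higher and -15.6 points for the lower regions. A typical region is short, with a median length of 49 bp and 10 cytosines.

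Region and promoter level went the same way more often for higher than for lower regions. Of the 395 genes with higher regions only, 362 (91.6%) had a promoter level that was also higher, beside 92.7% of such genes among all genes. The mean difference of the 395 was 5.70 points (SD 5.10). Of the 47 genes with lower regions only, 15 (31.9%) had a lower promoter level, and their mean difference was 2.52 points (SD 6.31). Most lower stretches of this kind thus lay in promoters that were not lower as a whole, which also held for the 1013 such genes among all genes, of which 36.5% had a lower promoter level. The 733 genes without a region differed by 4.08 points on average (SD 11.0), and 77.8% of them were higher.

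The regions belonged mostly to 1 gene. Of those in the authors' deposited table, 699 of the 789 regions (88.6%) touch no feature of another gene, 68 also lie in the promoter of a gene outside the set, 14 in the promoters of 2 CHH-led genes and 7 in the downstream flank of another gene. Promoters are nevertheless not all independent. In 60 of the 1230 genes all 6 promoter levels (3 contexts in 2 libraries) equal those of another gene, and 18 of them share the levels with another CHH-led gene. Counting each such promoter once left 1221 genes and a mean CHH difference of 4.59 points. CHH-led genes also lay next to each other at times: on the 9 numbered chromosomes, the next gene in the list was itself CHH-led in 8.33% of cases, where 4.53% of genes there are. There were 88 such pairs with 167 genes, and in 8 pairs the promoter levels were the same.

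Regions with a small corrected p-value in CHH-led promoters were all higher under light drought. The authors' deposited table has 9 of the 789 regions (1.14%) with a corrected p-value under 0.05, beside 52 of the 14278 promoter regions of all genes (0.364%), of which 47 are higher. How the correction was made is not known here, corrected and uncorrected values rank the regions differently, and the genes named next were picked by them after the values were seen. The region with the smallest corrected p-value, 4.26e-07 in the authors' deposited table, lies on chromosome 7 at 2312216 to 2312371, spans 54 cytosines and is higher by 40.9 points. It is in the promoters of both Cs7g04540 and Cs7g04560. Promoter CHH of Cs7g04540 was 8.10% under normal water and 15.9% under light drought, and that of Cs7g04560 was 5.04% and 12.2%. Downstream CHH was under 1% in both genes, and body CHH was 4.85% and 6.60% in Cs7g04540 and 0.31% and 0.28% in Cs7g04560. The body of Cs7g04540 thus held more CHH than most of the set.

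Cs7g28080 has a region at 28730606 to 28730815 of chromosome 7 in the authors' deposited table, 42.9 points higher and with 0.000279 as its corrected p. Its whole promoter stood at 33.9% and 43.3% in CHH, and its body at 0.14% and 0.20%. The region of Cs3g10100 in the authors' deposited table, at 14306331 to 14306527 of chromosome 3, is 26.0 points higher, with 0.00171 as its corrected p. There promoter CHH was 15.0% and 29.4% and CHG only 1.67% and 6.48%, beside CG of 59.3% and 71.2%, so the order was CG, CHH, CHG, and body CHH was 1.11% and 1.92%. Cs6g09500 has the largest difference among these regions in the authors' deposited table, 65.2 points over 21 cytosines at 11263344 to 11263507 of chromosome 6, and 0.0332 as its corrected p. Its promoter as a whole differed by 6.91 points, from 7.84% to 14.8%. In Cs3g01500, with a region of 42.1 points at 566888 to 567000 of chromosome 3 in the authors' deposited table (corrected p 0.00854), promoter CHH was 4.12% and 16.6%, and body and downstream flank were listed at 0 in CHH. The remaining genes with such a region were Cs6g13360, Cs4g14590, Cs1g15580 and Cs9g08340, and their promoter CHH was higher by 6.40, 12.6, 3.70 and 19.2 points.

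Among genes above 0 in both libraries with a higher region, the largest promoter difference was that of Cs7g15750. Its promoter CHH was 16.1% under normal water and 42.7% under light drought, its CHG 17.8% and 36.2%, and its CG 6.25% and 16.7%. The authors' deposited table has 3 regions in this promoter, the one with the largest difference on chromosome 7 at 11287785 to 11287842, with 47.7 points more and 0.241 as its corrected p. In this gene CG was the lowest context in both libraries. Cs8g11516 stood at 41.4% and 66.7% in CHH, with CG at 57.8% and 83.8% and CHG at 34.5% and 68.7%. Cs5g34470 was similar, at 31.9% and 54.9% in CHH and 53.4% and 89.3% in CG. In both, all contexts were higher by over 20 points and the gene body was listed at 0 throughout. Promoter CHH of orange1.1t03986 was 30.4% and 54.5%, with CHG at 7.00% and 30.8%. Its regions in the authors' deposited table also lie in the promoter of orange1.1t03985, so they cannot be assigned to 1 gene. Cs2g18570 was higher by 20.2 points, orange1.1t05365 by 19.7 points from 4.12%, and orange1.1t03721 by 19.6 points from 5.94%. In Cs9g08340, at 16.1% and 35.3% in CHH, CHG went from 23.3% to a listed 0, opposite to CHH.

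Lower regions lie in fewer of these promoters, and the genes with a decrease are drawn from fewer candidates. Cs3g10150 had the largest among genes above 0 in both libraries with a lower region, with promoter CHH of 59.8% under normal water and 40.7% under light drought. Its CHG was listed at 0 in both libraries and its CG at 0 and 12.5%, while body CG was 25.7% under normal water and listed at 0 under light drought. The promoter of Cs3g10150 holds a lower region in the authors' deposited table, on chromosome 3 at 14397074 to 14397137 (-15.5 points), and a higher one at 14396931 to 14397049 (32.2 points). Neighbouring stretches of this promoter thus differ in sign. Cs1g15700 stood at 21.5% and 10.5%, Cs8g17810 at 21.0% and 10.9%, and Cs5g32390 at 52.8% and 43.4%. Cs7g10040 was lower by 7.61 points and Cs5g03420 by 4.81 points. Cs5g03420 had no CG or CHG methylation listed in its promoter, beside CHH of 20.3% and 15.5%. The neighbours Cs4g08760 and Cs4g08770 have the same promoter levels, 19.8% and 16.2% in CHH, and the same lower region of -11.1 points on chromosome 4 at 5770965 to 5770993 in the authors' deposited table. Their difference of -3.58 points is 1 observation. Of these 8 genes, 3 were lower by 10 points or more. Larger decreases occurred in genes without a region, as in Cs1g13020 with 31.3% and 9.14%, picked out after its values were seen.

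The genes with the highest promoter CHH averages differed in their other contexts. In orange1.1t04572 promoter CHH was 90.0% under normal water and 80.0% under light drought, with CG and CHG listed at 0. Cs5g23760 and Cs5g23765 had the same promoter levels, with CHH of 87.5% and 78.2%, CHG of 71.4% and 78.6% and CG of 85.7% and 70.0%. Cs3g07570 stood at 78.2% and 84.2% in CHH, with CG at 100% and 95.8% and CHG listed at 0. In Cs2g17590 CHH was 76.7% and 82.8%, and CHG was listed at 0 under normal water and at 60.0% under light drought. None of these genes has a promoter or downstream region in the authors' deposited tables, and their gene bodies were listed at 0 in all contexts. Depth is unknown, so how many cytosines and reads stand behind such values cannot be said.

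CG regions in CHH-led promoters were few. By the authors' deposited table for CG, 6 of the 1230 genes (0.488%) have a higher and 5 (0.407%) a lower promoter region, beside 0.805% and 0.457% of all genes. For CHG the authors' deposited table gives 1 gene with a higher and 3 with a lower region, or 0.0813% and 0.244%, beside 1.08% and 0.55%. The rule bounds promoter CHG by CHH, so these low CHG shares are no separate result. Promoter CHG averaged 10.6% and 12.7% in the set, beside 23.9% and 25.3% in all genes. The largest CG difference with a CG region of the same sign was in orange1.1t03167, with promoter CG of 24.3% under normal water and 51.7% under light drought. Its CHH stood at 25.4% and 32.0%. Cs3g14690 was lower in CG, at 23.4% and 4.27%, and Cs9g02190 at 47.0% and 30.2%. In both of these genes promoter CHH differed by less than 0.3 points, with 8.17% and 7.90% in Cs3g14690 and 15.2% and 15.5% in Cs9g02190.

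CHH regions inside CHH-led genes were scarce. A CHH region of the authors' deposited table lies in an intron of 24 genes (1.95%), with 28 regions higher under light drought and 5 lower, beside 5.14% of all genes. Exons hold one in 11 genes (0.894%), with 9 regions higher and 3 lower, beside 5.27% of all genes in the authors' deposited table. For 5' UTRs the authors' deposited table has a CHH region in 12 genes (0.976%), with 12 regions higher and 1 lower, beside 0.788% of all genes. Intron and exon shares were below those of all genes. The set was chosen for low exon and intron methylation, so these 2 shares are no separate result. The 5' UTR share was near that of all genes.

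Downstream flanks, which played no part in the choice, looked like those of other genes in CHH, but were lower in CG and CHG than in all genes. Downstream CHH averaged at least 5% in 493 of the 1230 genes (40.1%), beside 38.5% of all genes, 42.7% of CHG-led genes and 37.8% of low genes. It averaged at least 10% in 366 (29.8%), the same share as in all genes (29.8%). The mean downstream CHH level was 7.44% under normal water and 9.16% under light drought, a difference of 1.71 points (SD 4.58) or 23.0% more, while the median difference was 0.18 points. The 493 genes with at least 5% differed by 4.02 points on average and the other 737 by 0.172 points. This split used the downstream level itself, and a low average leaves little room for a difference. For all genes the mean downstream CHH level was 21.5% more. Downstream CG averaged 20.4% and 21.5%, beside 27.4% and 29.1% in all genes. Downstream CHG averaged 14.2% and 15.2%, beside 18.8% and 19.6%. Low genes were close to the set, with 21.2% and 22.6% in CG and 15.2% and 16.6% in CHG. CHG-led genes had 24.8% and 26.5% in CG and 18.8% and 20.0% in CHG. The lower downstream CG and CHG are thus not particular to the set. Past the gene the usual order of CG, CHG and CHH thus held for the means. By medians CHH was slightly above CHG, at 1.22% and 1.455% against 0.955% and 1.305%. Across the 1230 genes, promoter and downstream CHH averages had a Pearson's r of -0.01, and their differences 0.0371, both over genes of the same 2 libraries.

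**Figure D4:**
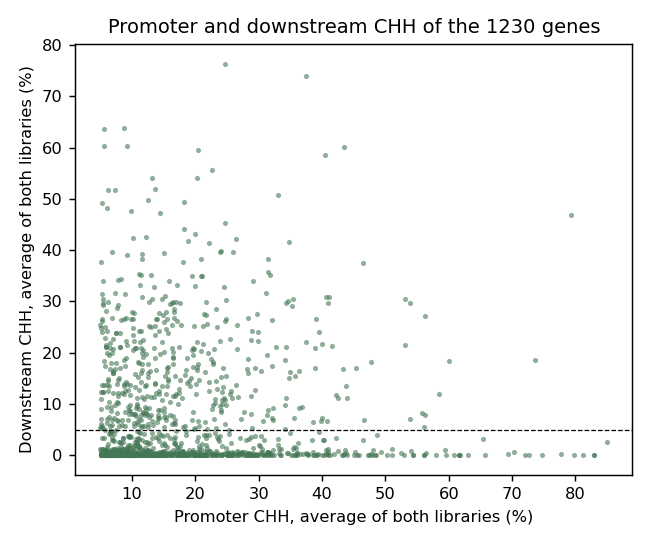
Promoter CHH (horizontal) and downstream CHH (vertical) in percent, each averaged over both libraries, 1 point per gene for the 1230 CHH-led genes. The dashed line marks a downstream average of 5%, reached by 493 genes, and these occur over most of the range of promoter CHH.

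The set was split by the downstream flank. The 493 genes with a downstream CHH average of at least 5% had promoter CHH of 15.5% under normal water and 20.6% under light drought, and a downstream level of 17.6% and 21.6%. The other 737 genes had 16.9% and 21.2% in the promoter and 0.649% and 0.821% downstream. The rule fixed the promoter side of this contrast, since it asks for CHH of at least 5% there. The split itself set the downstream side. The share with at least 5% downstream, 40.1%, was near the 38.5% of all genes. Downstream CHH was higher by at least 10 points in 58 genes (4.72%), beside 3.81% of all genes, and lower in 13 (1.06%), beside 0.626%. For CG, 22 genes (1.79%) were higher and 17 (1.38%) lower downstream by at least 20 points, beside 3.67% and 1.61%, and for CHG 18 (1.46%) and 16 (1.30%), beside 1.5% and 0.977%. The authors' deposited table for CHH gives 240 genes (19.5%) with a higher and 73 (5.93%) with a lower region downstream, beside 16.9% and 5.52% of all genes. Both a promoter and a downstream CHH region are present in 119 genes (9.67%), beside 6.81% of all genes and 11.2% of those with promoter CHH of at least 5%, by the authors' deposited table. CG regions lie downstream of 8 (higher) and 3 (lower) of the genes, beside 1.00% and 0.344% of all genes, and CHG regions of 9 and 1, beside 0.826% and 0.475%, by the authors' deposited tables. Downstream CHH regions were mostly higher, with 423 of 507 (83.4%) higher in the authors' deposited table, beside 81.6% of the downstream regions of all genes.

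The highest downstream CHH averages varied in what the promoter held. Cs3g14500 had 70.0% under normal water and 82.9% under light drought downstream and 21.5% and 27.8% in the promoter. Cs2g30620 had 70.1% and 78.1% downstream and 33.8% and 41.2% in the promoter, where the authors' deposited table has 3 higher regions. Cs5g01510 stood at 59.2% and 68.3% downstream, with 2 higher regions there in the authors' deposited table, and at 6.51% and 11.1% in the promoter. In Cs2g26060 and Cs9g15330 the promoter was near the lower limit of the set. Promoter CHH of Cs2g26060 was 1.11% and 9.89%, next to 59.4% and 68.0% downstream. Promoter CHH of Cs9g15330 was 0.62% and 10.4%, next to 70.3% and 50.6% downstream, so its flanks differed in opposite directions.

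The set was also divided by the order of contexts in the promoter. Genes with CG above CHH had promoter CHH of 15.5% and 20.0% (difference 4.49 points, SD 7.90, n = 692), genes with CHH first and CG second had 16.5% and 21.6% (5.16 points, SD 10.8, n = 294), and genes with CG below CHG had 18.6% and 22.7% (4.07 points, SD 10.2, n = 244). The medians were 3.70, 3.57 and 3.38 points, and no test of these differences was possible. Where CHH was at least 2 times CHG, promoter CHH was 13.4% and 18.1% (4.65 points, SD 10.8, n = 450), while CHG was 3.18% and 4.48%. Where the lead was smaller, CHH was 18.1% and 22.6% (4.52 points, SD 8.10, n = 780) and CHG 14.8% and 17.4%.

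CHH-led genes were found on every chromosome. They made up from 4.04% of the genes on chromosome 8 to 5.04% on chromosome 6, and 3.01% of the 5749 genes on unplaced sequence. Their mean promoter CHH difference was positive on each, from 3.37 points on chromosome 5 (SD 8.40, n = 147) to 5.58 points on chromosome 2 (SD 11.1, n = 153). The share of genes higher under light drought ran from 76.2% on chromosome 5 to 89.6% on chromosome 7.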

How the data were processed

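The authors deposited methylation levels per gene in percent for each library, per the file headers, for each promoter, exon, intron and UTR and for the whole body and the downstream flank. They also deposited region tables with p-values and corrected p-values and a signed difference in level (a score in percentage points), per the file headers. Tools named in the submitters' processing notes, with no role, are bedtools 2.26.0, Bismark 0.20.1 and SAMtools 1.4. Genome build, extent of promoters and flanks, coverage minimum and read depth: not given in the sources used here. Intervals and detection floors could therefore not be had, and a level of 0 can also stand for an absent or uncovered feature.

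Genes in both tables were used (29131 listed for normal water, 29138 for light drought). Members and lists were chosen with earlier results of these data known. The named genes are the 8 largest promoter CHH differences each way among genes above 0 in both libraries with an authors' region of the same sign, the 5 highest promoter and the 5 highest downstream CHH averages, the 3 genes on each side of the CHH limit, and the 3 largest CG differences with a CG region of the same sign. The sign of a region follows the order in the table's name (light drought first). 6 columns of levels per group in the region tables match no library's labels and were not used. The deposited starts were read as counted from 0, since the deposited overlap equals end minus start in 97.9% of CHH regions with 1 feature. Starts are given here counted from 1, so each is 1 above the deposited start. Of the gene identifiers, 0 matched the reference table of 29039 entries, so no gene names, planned gene lists or sequences are given.

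Software was Python 3.11.15 with matplotlib 3.10.9, pandas 2.3.3 and numpy 2.4.6. The size rule and the membership rule, run on 29073 genes, and the region step each recovered 200 of 200 planted cases with 0 others on simulated data.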

Additional observations from a re-analysis of the deposited data

How the results depend on the processing

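No paired analysis was possible because each condition has 1 library, and for the same reason no library could be left out. A change of over 1.5 times counts as a move: among 113 values recalculated, 39 moved, 2 reversed and 72 did neither. For moved values the cause was not tested unless the alternative's construction (fewer genes, another size) gives it. 3 alternatives were added after the data were seen: the rule met in each library, no genes at 0, and shared promoters counted once, which moved nothing.

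With genes chosen under normal water alone (1118 genes), the mean differences were 1.02 (CG body), 0.722 (CG downstream), 4.45 (CHG promoter), 0.414 (CHG body) and 2.92 points (CHH promoter). Chosen under light drought alone (1326 genes), CG body was -0.20 and CHG promoter -0.43 points, both reversed, CHG body was 0.114, and 14 genes were lower by 10 points. With promoter CHH of at least 10%, CHG body was 0.122. With CHH at least 2 times CHG, CHG promoter was 1.29, CHG body 0.376, CHG downstream 0.510 and CHH body 0.336 points, 64 genes were higher and 17 lower by 10 points, and 133 had a higher and 26 a lower region. Above 0 in both libraries the values were 0.691 (CG body), 2.11 (CG downstream), 0.347 (CHG body) and 2.18 (CHG downstream). The medians were 1.75 (CG promoter), 1.35 (CHG promoter), 0.02 (CHH body) and 0.18 (CHH downstream), and 0 for CG and CHG in body and downstream. At 5 points 470 genes were higher and 53 lower, and at 15 points 76 and 15. With a corrected p under 0.05, 10 genes had a higher and 0 a lower region; with a region difference of at least 20 points, 31 had a lower one. With the rule met in each library, CG body was 0.207, and 81 genes were higher and 9 lower by 10 points. Without genes at 0, 17 were lower.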
